A study of Homo sapiens with 6 samples.

Results

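A set of 10 aldehyde dehydrogenase genes were followed in the 83 cell line, a SACC cell (a line known as SACC-83, from adenoid cystic carcinoma of the salivary gland), with overexpression of ApoD and without it. They are ALDH1A1, ALDH1A3, ALDH1B1, ALDH2, ALDH3A1, ALDH3A2, ALDH3B1, ALDH3B2, ALDH7A1 and ALDH9A1, taken as a list of 10 symbols from a table of 21676 genes. All are genes of the aldehyde dehydrogenase family, and the rule for the list used no measured value, though the list was chosen with earlier results of these data known. Of the 10, 9 were measured and 8 passed the filter on low counts. ALDH1A1 did not pass it, and ALDH3B2 was not analysed here.

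Messenger RNA was sequenced from total RNA of 3 libraries with ApoD overexpression and 3 control libraries (NC in the labels) of the same line, and the labels name no other treatment, time or clone. They do not say how ApoD was introduced, whether the cells were 1 clone or a pool, or whether the 3 libraries of a group came from separate cultures, so each p-value reflects how far these libraries varied, and that variation may be technical. APOD itself, which encodes apolipoprotein D, had 628, 528 and 625 counts in the ApoD overexpression libraries and 9, 8 and 2 counts in the control libraries. Total counts ran between 37542568 and 40416964 per library. Over all 14629 genes tested, 3539 were higher (24.2%) and 3601 were lower (24.6%) with ApoD overexpression at an edgeR adjusted p below 0.05. With libraries scaled by their totals alone the split was 2580 higher and 4435 lower, and the median log2 fold change of all genes was -0.13 in place of -0.02.

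Markers of the labelled cell type were present: the 7 epithelial markers summed to between 3532 and 4036 counts per 1000000 (CPM) with ApoD overexpression and between 2960 and 4040 CPM in control. Of the 4 markers listed for adenoid cystic carcinoma, MYB and NFIB summed to between 19.2 and 23.1 CPM with ApoD overexpression and between 21.3 and 28.1 CPM in control, and the other 2 were not analysed here. The epithelial sum was carried by KRT5, KRT7, KRT8 and KRT18, while CDH1 had 1377, 999 and 1168 counts with ApoD overexpression and 3303, 3234 and 2795 counts in control, and KRT19 had 44, 36 and 17 counts with ApoD overexpression and 204, 249 and 128 counts in control. Sums for other cell types were far below the epithelial sum. Fibroblast markers summed to between 9.86 and 13.8 CPM with ApoD overexpression, against 26.9 to 32.6 CPM in control, carried by COL1A1 and COL3A1, while DCN and LUM had at most 1 count in any library. Endothelial markers summed to between 1.35 and 2.30 CPM with ApoD overexpression, against 8.01 to 13.3 CPM in control. Immune markers summed to between 36.7 and 38.7 CPM with ApoD overexpression, against 15.8 to 32.9 CPM in control, carried by CD68. The part of these in the results was not tested. In bulk RNA, fewer cells that express a gene and less RNA per cell cannot be told apart.

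Aldehyde dehydrogenases oxidise aldehydes to carboxylic acids with NAD or NADP as the acceptor of electrons. Their substrates come from ethanol, retinol, lipid peroxidation, amino acid breakdown and polyamines. The aldehyde binds to a cysteine in the active site before it is oxidised. In tumour cells the family is known mainly through assays of aldehyde dehydrogenase activity, which are used to sort cells with stem cell properties.

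The stretch around that cysteine is shown for 8 of the measured enzymes because it marks the family and shows which members are close in sequence. It was read from GENCODE release 29 transcripts as 12 codons (36 bases), placed by the pattern glycine, then glutamine or glutamate, then any residue, then cysteine, which occurred once in each of the 8 proteins. Capitals mark the codon of the cysteine.
ALDH1A1: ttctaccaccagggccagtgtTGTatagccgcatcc
ALDH1A3: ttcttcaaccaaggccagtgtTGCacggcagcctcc
ALDH1B1: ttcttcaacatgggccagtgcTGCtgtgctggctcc
ALDH2: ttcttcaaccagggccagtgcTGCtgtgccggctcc
ALDH3A1: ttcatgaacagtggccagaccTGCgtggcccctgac
ALDH3A2: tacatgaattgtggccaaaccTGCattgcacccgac
ALDH3B1: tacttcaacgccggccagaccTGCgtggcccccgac
ALDH9A1: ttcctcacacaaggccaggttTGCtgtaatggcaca
The cysteine codon was TGC in 7 genes and TGT in 1, and 9 of the 36 bases were the same in all 8. ALDH1B1 and ALDH2 shared 33 bases, ALDH3A1 and ALDH3B1 shared 29, and ALDH3A1 and ALDH3A2 shared 28.

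Of the 8 tested members, 6 were lower with ApoD overexpression, 1 was higher and 1 did not pass the threshold. Of all 14629 genes tested, 24.6% were lower and 24.2% were higher. The median log2 fold change of the 8 was -0.54, against -0.02 over all genes tested. ALDH3A1 carried the largest change, at 5.80% of its control level. In the fit reported here, with TMM scaling, it was the only member of the 8 lower by over 2-fold. That size of fall, with an edgeR adjusted p below 0.05, was reached by 11.5% of all genes tested. With library totals, ALDH3B1 and ALDH1A3 also passed that size, with log2 fold changes of -1.11 and -1.03. They also did so with each library's trend with abundance removed (-1.075 and -1.01). Limma on log2(FPKM + 0.1) also put both past that size (-1.0954 and -1.0148). ALDH3B1 passed it in further alternatives, among them the fit without control replicate 1 (-1.07). ALDH1B1 was the member that rose. For 7 of the 8 the ApoD overexpression and control libraries did not overlap, which held for 58.7% of all genes tested.

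**Figure D1:**
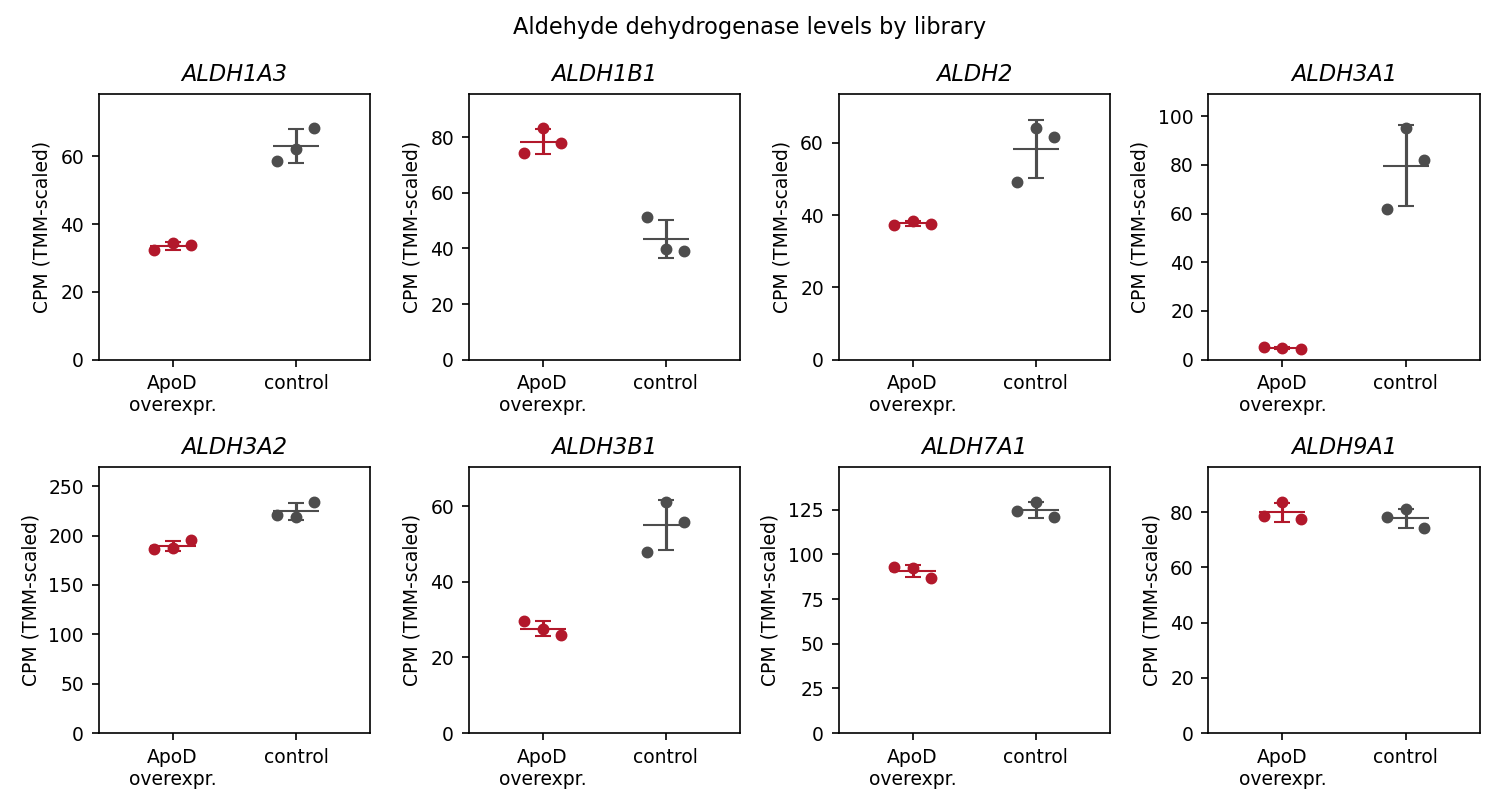
Level of each tested aldehyde dehydrogenase in every library, in CPM on a linear axis that starts at 0; points are libraries, horizontal lines are means and error bars are SD (n = 3 libraries per group), with ApoD overexpression on the left and control on the right. ALDH3A1 lies between 4.23 and 5.05 CPM with ApoD overexpression and between 61.8 and 95.1 CPM in control; ALDH1A1 is not drawn because it did not pass the low-count filter.

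ALDH3A1 encodes a cytosolic enzyme that oxidises medium-chain and aromatic aldehydes, is abundant in the cornea, and is induced through the aryl hydrocarbon receptor in several cell types. It had 199, 163 and 162 counts in the ApoD overexpression libraries and 2495, 3893 and 3401 counts in the control libraries. Scaled, these were 5.05, 4.59 and 4.23 CPM with ApoD overexpression and 61.8, 95.1 and 82.1 CPM in control. Every ApoD overexpression library was far below every control library, and the control libraries varied more among themselves than the ApoD overexpression libraries did. The mean was 4.62 ± 0.414 CPM with ApoD overexpression and 79.7 ± 16.7 CPM in control (SD, n = 3 each), a log2 fold change of -4.11 ± 0.17 (SE; 95% interval -4.47 to -3.74; edgeR adjusted p = 4e-08), or 17.2-fold lower. Of the 14629 genes, ordered by log2 fold change, it was number 86 from the lowest. None of the 1876 windows of 50 bases in the GENCODE transcript checked occurred in a transcript of another gene. The length behind its FPKM was 3974 bases, and sequence outside that transcript was not checked.

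ALDH3A2 lies near ALDH3A1 on chromosome 17 and encodes the fatty aldehyde dehydrogenase of the endoplasmic reticulum, whose loss causes Sjögren-Larsson syndrome. It had 187, 187 and 196 CPM in the ApoD overexpression libraries and 220, 219 and 234 CPM in the control libraries. The groups did not overlap, but the gap was small: 84.5% of the control level, a log2 fold change of -0.24 ± 0.08 with an edgeR adjusted p of 0.0288. This was the weakest of the 6 falls. It missed the threshold without ApoD overexpression replicate 1 (adjusted p = 0.129) or 3 (0.111), without control replicate 2 (0.0735) or 3 (0.161), without the low-count filter (0.0983) and with a replicate block (0.0894).

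ALDH3B1 encodes an enzyme that oxidises aldehydes from lipid peroxidation and is anchored to membranes. It had 29.7, 27.4 and 25.8 CPM with ApoD overexpression and 47.9, 61.2 and 55.8 CPM in control. The groups stood clearly apart. The mean fell to 27.6 ± 1.98 CPM with ApoD overexpression, against 55.0 ± 6.67 CPM in control, a log2 fold change of -0.99 ± 0.11 (edgeR adjusted p = 3.44e-05). Of its 2737 transcript windows of 50 bases, 60 (2.19%) also occurred in other genes, ALDH3B2 among them.

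ALDH1A3 makes retinoic acid from retinaldehyde and contributes much of the aldehyde dehydrogenase activity measured in several carcinomas. It had 32.4, 34.5 and 33.9 CPM in the ApoD overexpression libraries and 58.5, 62.1 and 68.3 CPM in the control libraries. The ApoD overexpression libraries lay close together and well below control. The mean was 33.6 ± 1.09 CPM with ApoD overexpression and 63.0 ± 4.92 CPM in control, so the level fell to 53.3% of control, with a log2 fold change of -0.91 ± 0.10 (edgeR adjusted p = 2.11e-05). The strand setting of the counting is not given in the sources used here. Reads from any stretch that ALDH1A3 shares with its antisense gene ALDH1A3-AS1 therefore cannot be told apart, and their overlap was not examined. The antisense gene had 99, 102 and 133 counts with ApoD overexpression and 102, 123 and 69 counts in control, few beside the 1224 to 2826 counts of ALDH1A3. These counts depend on the same setting, so they set no limit on such a mix of reads.

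ALDH1A1, the cytosolic retinaldehyde dehydrogenase most used as a stem cell marker, was close to undetected. It had 0 counts in each ApoD overexpression library and 4, 10 and 0 counts in the control libraries. The control counts came from replicates 1 and 2 alone. With a floor of 3 counts set for the ApoD overexpression group, the observed pooled control level was 4.31-fold above that floor. Without the low-count filter the edgeR adjusted p was 0.0528. The floor covers counting error of the ApoD overexpression group only, not that of the 14 control counts, so this is no firm minimum. The groups overlapped at 0 counts.

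ALDH1B1 and ALDH2 both encode mitochondrial enzymes that oxidise acetaldehyde, and they moved in opposite directions. Their active-site windows were the closest of all pairs shown. ALDH1B1 had 74.2, 83.2 and 77.8 CPM in the ApoD overexpression libraries and 51.3, 39.7 and 39.2 CPM in the control libraries. ALDH2, the main acetaldehyde dehydrogenase of the liver, had 37.2, 38.5 and 37.5 CPM with ApoD overexpression and 49.3, 64.0 and 61.6 CPM in control. For both genes control replicate 1 was the control library nearest to the ApoD overexpression mean, and the groups did not overlap. That replicate was the nearest for 5 of the 8 tested members, these 2 among them. ALDH1B1 rose to 78.4 ± 4.54 CPM with ApoD overexpression, against 43.4 ± 6.85 CPM in control, a 1.81-fold change (log2 fold change 0.85 ± 0.12, edgeR adjusted p = 0.000108). ALDH2 fell to 37.7 ± 0.663 CPM with ApoD overexpression, against 58.3 ± 7.92 CPM in control (log2 fold change -0.63 ± 0.11, edgeR adjusted p = 0.000641). Of the 9520 windows of 50 bases in the ALDH2 transcript, 9.47% also occurred in other genes, against 0.53% for ALDH1B1.

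ALDH7A1 oxidises an aldehyde of lysine breakdown, and its loss causes pyridoxine-dependent epilepsy. It had 92.9, 92.2 and 87.0 CPM in the ApoD overexpression libraries and 124, 129 and 121 CPM in the control libraries, so the groups did not overlap. Its log2 fold change was -0.46 ± 0.08 (edgeR adjusted p = 0.000838), a fall to 72.6% of control. Of its 2452 transcript windows, 14.27% also occurred in the pseudogene ALDH7A1P1, so part of its counts could come from or go to that copy.

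ALDH9A1 acts in carnitine synthesis, on an aldehyde derived from trimethyllysine, and also on aminobutyraldehyde. It was the tested member with no call: it had 78.7, 83.8 and 77.4 CPM with ApoD overexpression and 78.3, 81.1 and 74.2 CPM in control. The groups overlapped. The log2 fold change was 0.04 ± 0.09 (edgeR adjusted p = 0.745), with a 95% interval of -0.15 to 0.23, and its sign depended on the scaling.

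The measured genes of the family outside the list were mostly enzymes of amino acid and folate metabolism. Of these 9 genes, 6 passed the low-count filter, with 2 higher, 3 lower and a median log2 fold change of -0.85. Over all genes tested, 24.2% were higher and 24.6% were lower. ALDH6A1, which acts in valine breakdown, had 352, 307 and 324 counts with ApoD overexpression and 715, 890 and 894 counts in control (log2 fold change -1.23 ± 0.13, edgeR adjusted p = 1.89e-05). ALDH5A1, which clears succinic semialdehyde from the breakdown of GABA, had 150, 117 and 160 counts with ApoD overexpression and 327, 415 and 317 counts in control (log2 fold change -1.20 ± 0.18, edgeR adjusted p = 0.000257). In both genes every ApoD overexpression library was below every control library. Groups did not overlap, in either direction, for 58.7% of all genes tested.

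Family members also act on either side of proline. ALDH18A1, which makes the precursor of proline, rose, with 6852, 6742 and 7690 counts with ApoD overexpression and 6138, 5259 and 4956 counts in control (log2 fold change 0.50 ± 0.11, edgeR adjusted p = 0.00222). ALDH4A1, which acts in proline breakdown, had 332, 242 and 341 counts with ApoD overexpression and 539, 482 and 386 counts in control (log2 fold change -0.51 ± 0.17, edgeR adjusted p = 0.0262). Leaving out ApoD overexpression replicate 2 ended the ALDH4A1 call (adjusted p = 0.083), as did leaving out control replicate 1 (0.0739) or control replicate 2 (0.0812), or removing the abundance trend (0.0974), so 4 of 15 alternatives lost it. ALDH16A1, whose mammalian protein lacks the catalytic cysteine, had 1188, 1391 and 1425 counts with ApoD overexpression and 1307, 982 and 976 counts in control. Its groups overlapped, and its log2 fold change of 0.41 ± 0.14 (edgeR adjusted p = 0.0317) was lost in 9 of 15 alternatives, among them the fits without ApoD overexpression replicate 2 (0.115) or 3 (0.0682) and without control replicate 2 (0.127) or 3 (0.091).

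ALDH1L2, the mitochondrial formyltetrahydrofolate dehydrogenase, had 3, 4 and 3 counts with ApoD overexpression and 10, 12 and 10 counts in control, and its adjusted p was 0.0787 (edgeR). ALDH1A2 had 0 counts in each ApoD overexpression library, with 1, 0 and 1 counts in control. ALDH8A1 had 2, 5 and 2 counts with ApoD overexpression, with 1, 0 and 1 counts in control. ALDH1L1 had 6, 0 and 0 counts with ApoD overexpression and 0 counts in every control library. These 3 genes were under the low-count filter, and no difference was tested for them.

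**Figure D2:**
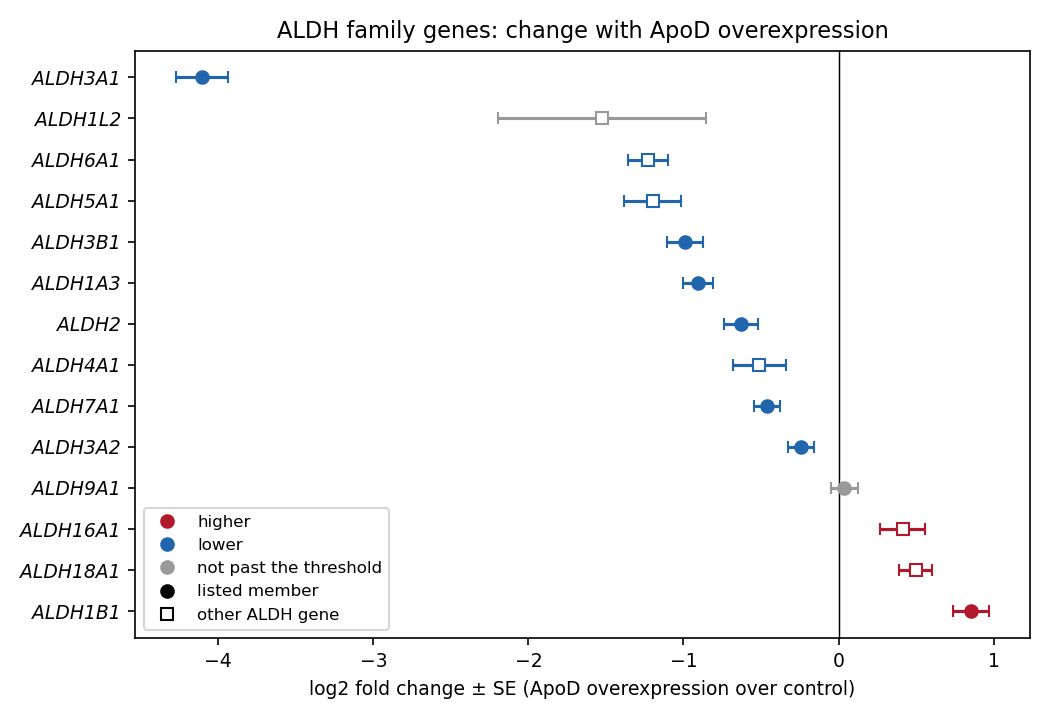
Log2 fold change (ApoD overexpression over control, horizontal axis) of the 14 tested aldehyde dehydrogenase genes, listed members and other family genes; filled circles are listed members, open squares other family genes, colours the calls, and error bars the SE of the edgeR fit over 3 libraries per group. ALDH3A1 stands alone at -4.11, ALDH1B1 is the highest at 0.85, and the error bar of ALDH9A1 spans 0.

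Levels of different genes were compared per transcript length, as FPKM (fragments per kilobase of transcript, scaled to the library total). The length was a single fixed value per gene, such as 3974 bases for ALDH3A1, 4765 for ALDH7A1 and 9561 for ALDH2. Which transcripts the cells expressed was not tested. The order of genes and each gene's part of a sum depend on these lengths. With ApoD overexpression the order of means was ALDH3A2 at 44.8 ± 1.31 FPKM, ALDH9A1 at 30.4 ± 1.003, ALDH1B1 at 24.1 ± 1.04, ALDH7A1 at 18.3 ± 0.735, ALDH1A3 at 9.28 ± 0.170, ALDH3B1 at 8.98 ± 0.736, ALDH2 at 3.79 ± 0.0199 and ALDH3A1 at 1.12 ± 0.111 FPKM (SD, n = 3). In control the order was ALDH3A2 at 57.5 ± 3.35 FPKM, ALDH9A1 at 32.1 ± 1.01, ALDH7A1 at 27.3 ± 0.738, ALDH3A1 at 20.9 ± 4.52, ALDH3B1 at 19.4 ± 2.50, ALDH1A3 at 18.9 ± 1.89, ALDH1B1 at 14.5 ± 2.05 and ALDH2 at 6.36 ± 0.941 FPKM (SD, n = 3). ALDH1A1 was last in both groups. By its mean, ALDH3A1 stood in place 8 of 9 with ApoD overexpression and place 4 in control, and ALDH1B1 in place 3 with ApoD overexpression and place 7 in control. With ApoD overexpression, ALDH1A3 and ALDH3B1 overlapped. In control, the ranges of ALDH3A1, ALDH3B1 and ALDH1A3 overlapped one another, and that of ALDH1B1 (13.2 to 16.8 FPKM) overlapped those of ALDH3A1 (15.9 to 24.7 FPKM) and ALDH3B1 (16.6 to 21.4 FPKM). In control replicate 1, ALDH3A1, at 15.9 FPKM, was below ALDH3B1, ALDH1A3 and ALDH1B1, so the control places are places of the means only.

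Summed over the 9 measured members, the level was 141, 142 and 140 FPKM in the ApoD overexpression libraries and 186, 202 and 203 FPKM in the control libraries. Each ApoD overexpression library was below each control library. The mean sum was 140.8 ± 1.07 FPKM with ApoD overexpression and 197 ± 9.67 FPKM in control, 71.5% of control, and the two-sided exact permutation p was 0.1, the smallest that 3 libraries against 3 allow, so this test could not have reached 0.05. FPKM divides by library totals, the scaling under which the median gene was lower by 0.13 on the log2 scale. Within the sum, ALDH3A1 made up 0.793 ± 0.0754% with ApoD overexpression and 10.6 ± 1.86% in control, and ALDH1B1 made up 17.1 ± 0.710% with ApoD overexpression and 7.39 ± 1.44% in control. ALDH3A2 remained the largest part, at 31.8 ± 1.17% with ApoD overexpression and 29.2 ± 1.42% in control.

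**Figure D3:**
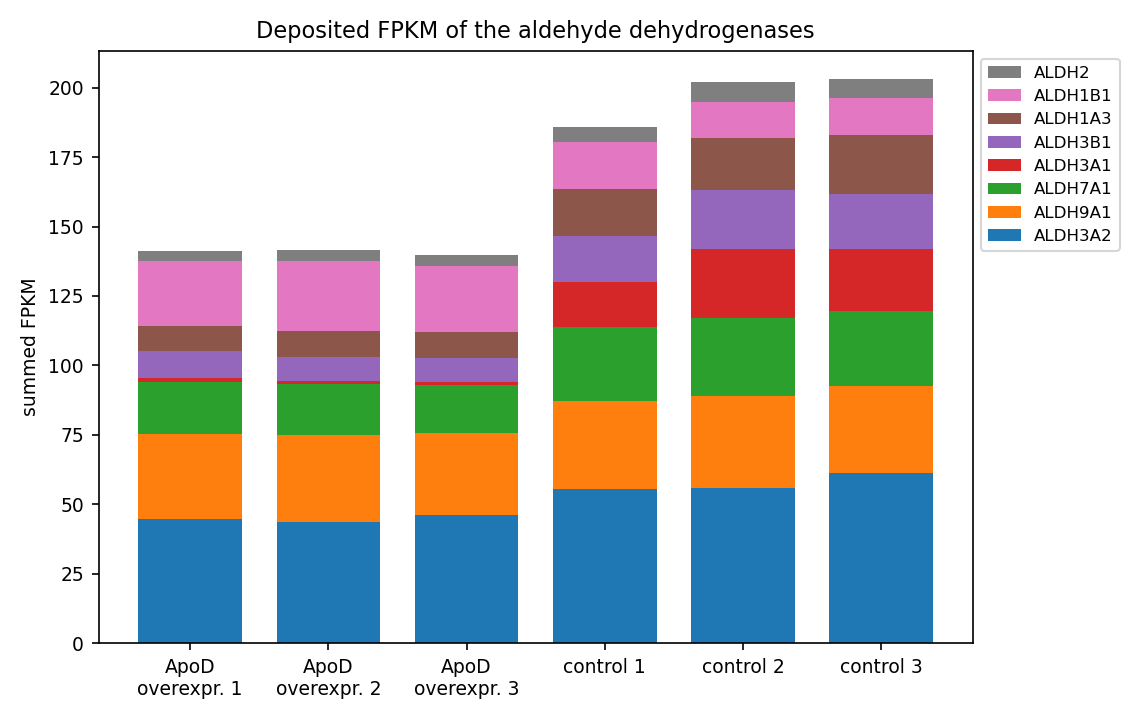
Deposited FPKM of the measured aldehyde dehydrogenases stacked for each library (linear axis from 0; each colour is a gene and each bar a library, ApoD overexpression left of control); ALDH1A1, at 0 to 0.12 FPKM, is too low to draw. The ApoD overexpression bars are about level at 140 to 142 FPKM, and the ALDH3A1 band that is visible in each control bar nearly vanishes in them.

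Genes around these enzymes were read by pathway, beside the 24.6% of all genes tested that were lower and the 24.2% that were higher. Of 20 retinoic acid pathway genes listed, 12 passed the low-count filter, with 6 lower and 1 higher and a median log2 fold change of -0.64. DHRS3, which reduces retinaldehyde back to retinol and is itself induced by retinoic acid, had 14.3, 14.5 and 13.1 CPM with ApoD overexpression and 59.1, 70.9 and 64.7 CPM in control. Its log2 fold change was -2.22 ± 0.11 (edgeR adjusted p = 1.36e-07). STRA6, the receptor that takes up retinol, had 17.6, 15.6 and 15.7 CPM with ApoD overexpression and 50.8, 73.6 and 60.6 CPM in control (log2 fold change -1.92 ± 0.14, edgeR adjusted p = 1.58e-06). CRABP2, which carries retinoic acid to its nuclear receptors, fell to 8.73 ± 0.559 CPM with ApoD overexpression, against 31.6 ± 4.58 CPM in control (log2 fold change -1.86 ± 0.13). For these 3 genes, named for the size of their change, the groups did not overlap, which held for 58.7% of all genes tested. RARA, a retinoic acid receptor, was the gene that was higher, with a log2 fold change of 0.40. With limma on unfiltered log2(FPKM + 1), 0 genes of this list were higher. RARG, another receptor of the list, was lower, with a log2 fold change of -0.55 (edgeR adjusted p = 0.000376). RXRA and RXRB did not pass the threshold, with log2 fold changes of -0.15 and -0.17.

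Of 9 genes of the aryl hydrocarbon receptor (AHR) pathway, 7 passed the filter, with 3 lower, 1 higher and a median log2 fold change of -0.24. The shares over all genes tested were 24.6% lower and 24.2% higher. The classical target genes moved apart. UGT1A6, a glucuronosyltransferase that shares exons with other UGT1A genes so that its counts are uncertain, had 5.08, 6.87 and 6.11 CPM with ApoD overexpression and 33.6, 38.7 and 40.3 CPM in control (log2 fold change -2.64 ± 0.14, edgeR adjusted p = 1.71e-07). CYP1A1, the best known AHR target, was low in both groups but higher with ApoD overexpression, with 150, 219 and 208 counts against 75, 47 and 56 counts in control (log2 fold change 1.82 ± 0.27, edgeR adjusted p = 0.000214). CYP1B1 had overlapping groups and a log2 fold change of -0.55 ± 0.19 (edgeR adjusted p = 0.0327) that was lost in 5 of 15 alternatives, among them the fits without ApoD overexpression replicate 2 (0.113) or 3 (0.094) and without control replicate 2 (0.0794) or 3 (0.128). ARNT was the remaining lower gene of this list, with a log2 fold change of -0.52 (edgeR adjusted p = 0.000651). NQO1 and AHR itself did not pass the threshold, with log2 fold changes of 0.21 and -0.24 and edgeR adjusted p of 0.132 and 0.107.

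Of 20 enzymes and carriers that make or use the aldehydes and products of these enzymes, 17 passed the filter. Among them 7 were lower and 3 higher, against 24.6% and 24.2% of all genes tested, with a median log2 fold change of -0.16. SAT1, which acetylates polyamines for their breakdown, fell to 41.7 ± 3.98 CPM with ApoD overexpression, against 175 ± 51.7 CPM in control (log2 fold change -2.07 ± 0.19, edgeR adjusted p = 7.52e-06). MAOA, which makes aldehydes from amines, fell to 9.55 ± 0.559 CPM with ApoD overexpression, against 21.6 ± 6.40 CPM in control (log2 fold change -1.18 ± 0.19, edgeR adjusted p = 0.000317). CYP2E1, which oxidises ethanol, had 15, 2 and 2 counts with ApoD overexpression and 26, 40 and 34 counts in control. ApoD overexpression replicate 1 held most of that group's counts, and the log2 fold change of -2.27 ± 0.68 (edgeR adjusted p = 0.0149) became -3.81 without it. The call was lost without ApoD overexpression replicate 2 (0.0616) or 3 (0.0529), without control replicate 2 (0.059), or with the abundance trend removed (0.0739).

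Of 16 other aldehyde and alcohol oxidoreductases, 10 passed the filter, with 3 lower, 2 higher and a median log2 fold change of -0.15. These counts were near the shares over all genes tested, 24.6% lower and 24.2% higher. AOX1, aldehyde oxidase, had 56, 45 and 102 counts with ApoD overexpression and 17, 22 and 16 counts in control (log2 fold change 1.99 ± 0.42, edgeR adjusted p = 0.00206). ApoD overexpression replicate 3 was the highest, yet each of that group's libraries was above each control library. PTGR1, which reduces unsaturated lipid aldehydes and ketones, had a log2 fold change of -0.73 ± 0.11, and AKR1A1, an aldehyde reductase, had one of -0.61 ± 0.10, both past the threshold.

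**Figure D4:**
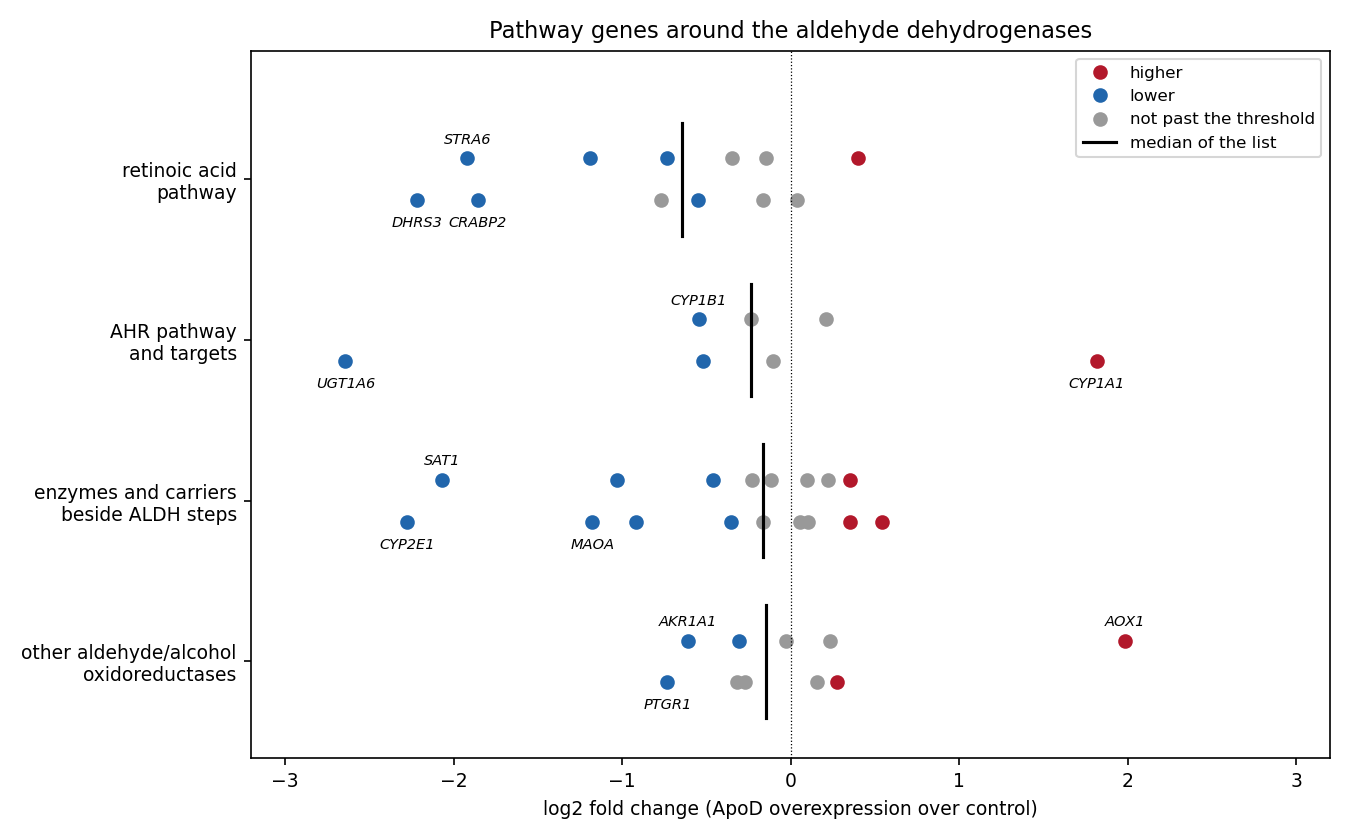
Log2 fold change (ApoD overexpression over control, horizontal axis) of each tested gene in the 4 pathway lists; a point is a gene, its colour is its call at an edgeR adjusted p of 0.05 and the black line is the median of the list. The retinoic acid list has the lowest median, -0.64, and DHRS3, STRA6 and CRABP2 form its low end.

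Likeness to ALDH3A1 and ALDH1B1 was measured as the Euclidean distance of mean-centred log2 CPM over the 6 libraries, among genes with a mean of at least 5 CPM. The 3 genes most like ALDH3A1 were AKR1B10, LOXL4 and MMP12, at distances of 0.452, 0.468 and 0.654. AKR1B10, an aldo-keto reductase that reduces aldehydes and retinal, had 169, 103 and 131 counts with ApoD overexpression and 2282, 3328 and 3166 counts in control. LOXL4, a lysyl oxidase-like enzyme, had 252, 217 and 237 counts with ApoD overexpression and 3810, 4335 and 3606 counts in control. MMP12, an elastase, had 62, 36 and 42 counts with ApoD overexpression and 836, 1153 and 679 counts in control. Their log2 fold changes were -4.33, -3.94 and -4.14, a description only, since likeness over these libraries is mostly the same difference between groups. The genes most like ALDH1B1 were CCT2 (a chaperonin subunit), TRIM14 and DPH7, at distances of 0.0451, 0.0664 and 0.071 and log2 fold changes of 0.87, 0.83 and 0.81.

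Promoters are shown for ALDH1A3, which fell, and ALDH1B1, which rose, because the ALDH1A3 window held a motif searched for and ALDH1B1 was the member that rose. Each is 300 bases long and spans a start of the gene in RefSeq, in GRCh38.p14 on the plus strand, at chr15:100879581-100879880 and chr9:38392452-38392751. In GENCODE the ALDH1A3 gene begins at chr15:100877714, outside this window, and no other start of ALDH1A3 was searched. Capitals mark GCGTG on either strand, the core of the xenobiotic response element that AHR binds.
ALDH1A3: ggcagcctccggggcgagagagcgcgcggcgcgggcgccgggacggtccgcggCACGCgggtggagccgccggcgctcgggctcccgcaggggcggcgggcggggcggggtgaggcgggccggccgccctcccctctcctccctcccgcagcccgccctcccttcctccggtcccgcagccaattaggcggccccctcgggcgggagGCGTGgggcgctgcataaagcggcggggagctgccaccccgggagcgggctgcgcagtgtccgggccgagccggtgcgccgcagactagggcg
ALDH1B1: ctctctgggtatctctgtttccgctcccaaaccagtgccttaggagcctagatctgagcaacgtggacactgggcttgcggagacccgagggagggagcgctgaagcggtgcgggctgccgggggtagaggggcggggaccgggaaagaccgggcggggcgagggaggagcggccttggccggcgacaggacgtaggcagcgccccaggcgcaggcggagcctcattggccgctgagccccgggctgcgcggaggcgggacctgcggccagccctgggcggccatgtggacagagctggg
GCGTG occurred in the ALDH1A3 promoter (2 matches) and in 1 of the ALDH3A2 entries (2 matches), but not in the windows of ALDH1A1, ALDH1B1, ALDH3B1, ALDH7A1 or ALDH9A1. ALDH2, ALDH3A1 and ALDH3B2 were not searched. It occurred in 36.5% of all 35116 promoters in the table. The antioxidant response element core TGACNNNGC, searched on both strands, occurred in none of these members' windows and in 13.3% of all promoters. A match is no sign of binding, and a window without one says only that these letters are not in it.

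The direction and call held in all 15 alternatives for ALDH3A1 (log2 fold change -4.25 to -3.35), ALDH3B1 (-1.11 to -0.91), ALDH1A3 (-1.03 to -0.83), ALDH2 (-0.75 to -0.55), ALDH7A1 (-0.63 to -0.41) and ALDH1B1 (0.71 to 1.0004). ALDH3A2 kept its direction (-0.44 to -0.20) and lost its call in 6 of 15.

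**Figure D5:**
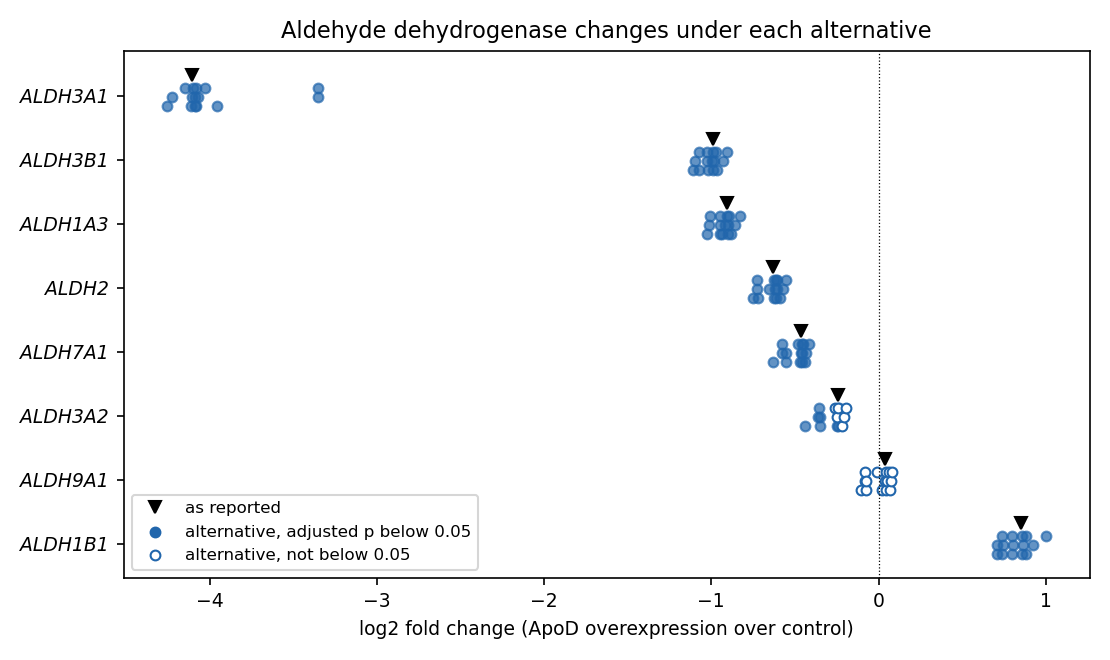
Log2 fold change (ApoD overexpression over control, horizontal axis) of each tested member as reported (triangle) and under each of 15 alternatives (circles, filled where the adjusted p was below 0.05; the vertical offset only separates the circles). ALDH3A1 lies at -4.25 to -3.35 throughout, ALDH3A2 has open circles in 6 of 15 and ALDH9A1 lies on both sides of 0.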

How the data were processed

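Libraries were made from total RNA with a SMARTER mRNA-Seq kit, per the labels' protocols; which aligner, counter, strand setting and genome build were used is not given in the sources used here. The authors deposited whole-number read counts and FPKM values for 21676 genes in 6 libraries, per the file headers, and 0 columns were left without a sample. Each member's FPKM equals its count divided by the library total and a single whole-number length.

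In R 4.3.3, edgeR 4.0.16 was run on the counts (glmQLFit and glmQLFTest, a quasi-likelihood test), with TMM scaling and genes kept by filterByExpr (minimum count 10), which left 14629. Tests were two-sided, with Benjamini-Hochberg adjustment over those genes and a threshold of 0.05. The steps were also run on simulated counts. Far fewer genes changed in those than were called here, so that run cannot check the scaling of these data. Log2 fold changes are ApoD overexpression over control, and the standard error is the absolute log2 fold change over the square root of F. CPM are counts per 1000000 of a TMM-scaled library, computed here.

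The named genes were every member, every other ALDH gene, APOD, up to 3 genes past the threshold per pathway list by size of change, and the 3 genes most like ALDH3A1 and ALDH1B1. Genes named beside these (RARA, RARG, RXRA, RXRB, ARNT, NQO1 and AHR, with some markers) were chosen after their values were seen. The members and lists were chosen with earlier results of these data known. Alternatives were DESeq2 size factors, library totals, DESeq2 1.42.0, no low-count filter, a replicate block, limma 3.58.1 on log2(FPKM + 1) and log2(FPKM + 0.1) for genes of at least 1 FPKM in 3 libraries and on log2(FPKM + 1) unfiltered, removal of each library's trend with abundance, and leaving out each library. Some genes and sequences are not reported here. Transcript windows came from GENCODE release 29, from the transcript with the longest coding sequence per gene, and promoters from RefSeq (GRCh38.p14).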

Additional observations from a re-analysis of the deposited data

How the results depend on the processing

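The 6 members named at the end of the report kept direction and call in all 15 alternatives. ALDH9A1 was never past the threshold, and its log2 fold change was -0.0793 with library totals, -0.0766 with limma on log2(FPKM + 1), -0.0788 on log2(FPKM + 0.1), -0.0766 on unfiltered log2(FPKM + 1) and -0.11 with the abundance trend removed, and it ranged between -0.0067 (without ApoD overexpression replicate 2) and 0.0797 (without ApoD overexpression replicate 3) when libraries were left out. The labels do not say that the replicate numbers pair the samples. Same-numbered libraries deviated from their group means with correlations of -0.22, -0.05 and -0.117. With 3 libraries per group, these values cannot settle whether the numbers mark a shared culture or day. With a replicate block, 3088 genes were higher and 3260 lower, 1 member was higher and 5 were lower, and 1 oxidoreductase was higher. Library totals left 1 higher among other ALDH genes, 1 among enzymes and carriers and 1 among oxidoreductases, with 5 oxidoreductases lower. Limma on filtered FPKM, at either pseudocount, gave 1 higher, 1 higher and 0 higher in those lists, with 5 oxidoreductases lower. Limma on unfiltered FPKM gave 2317 genes higher, and 1 other ALDH gene, 0 retinoic acid genes, 0 enzymes and carriers and 1 oxidoreductase higher. With the abundance trend removed, 1 other ALDH gene and 1 oxidoreductase were higher and 4 enzymes and carriers were lower. Leaving out each library in turn gave 2690 to 3712 genes higher and 2764 to 3807 lower; 1 to 1 members higher and 5 to 6 lower; 1 to 2 other ALDH genes higher and 2 to 3 lower; 1 to 2 AHR genes higher and 2 to 4 lower; 1 to 3 enzymes and carriers higher and 4 to 6 lower; 1 to 2 oxidoreductases higher and 2 to 3 lower; and 1 to 1 retinoic acid genes higher and 5 to 7 lower. The cause of these shifts was not tested. Depth limits ALDH1A1 and the rarest other ALDH genes, whose counts are too few for a test.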
